A study of Homo sapiens with 4 samples.

Results

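The genes examined here were the 2 cholinesterases and the proteins that make, load, recover and anchor the acetylcholine system, in HEK293 cells. They were BCHE, ACHE, CHAT, SLC18A3, SLC5A7, COLQ and PRIMA1, chosen by name as a set of 7 among the 17217 genes that the array's probes could be matched to. Their probes were those whose RefSeq accession belongs to one of these genes, and each gene had 1 target of 3 probes, 21 probes of 71998 in all. The set was drawn up with results of the same arrays in view, the spread of BCHE between arrays among them, so the levels of these genes are given as a description and without a test. HEK293 is an immortalised line made from human embryonic kidney cells with adenovirus DNA, and cloned receptors are often studied in it. By the labels there were 4 biological replicates of this line, all unmodified and untreated, grown in DMEM with serum, penicillin and streptomycin. According to the study's methods each replicate was a separate plate with its own RNA extraction. As all 4 form a single group, nothing could be compared between conditions.

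Acetylcholine is made from choline and acetyl-CoA by choline acetyltransferase, the product of CHAT, and is packed into synaptic vesicles by the vesicular transporter SLC18A3. After release it is split by acetylcholinesterase, ACHE, and the choline is carried back into the nerve ending by the high-affinity transporter SLC5A7. Butyrylcholinesterase, BCHE, is a relative of acetylcholinesterase that accepts a broader range of esters, circulates in plasma and clears the muscle relaxant succinylcholine. Both enzymes form tetramers around a proline-rich anchor, which is the collagen tail COLQ in the basal lamina of the neuromuscular junction and the membrane protein PRIMA1 in the brain.

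Each value below is on a log2 scale and is either a level, the log2 of the mean of a gene's 3 linear probe values on an array, or a distance, that level minus the baseline of the same array. The baseline is the one the study's methods set for significant message, the mean plus 2 SD of seminal protein genes that the line was thought not to transcribe. It was 9.47, 9.94, 10.69 and 10.32 log2 units on replicates 1 to 4, from 10 matched control genes of 11 listed. A gene with a mean distance above 0 over the 4 arrays was counted as above the baseline. Probes differ in affinity, so a distance does not measure how much more of one transcript than of another a cell holds. The probe values had nearly the same distribution on replicates 1 and 2, and another shared distribution on replicates 3 and 4, so differences within each of these pairs are given as well. Pearson's r between arrays, taken across genes, which are not independent replicates, ran from 0.949 to 0.977.

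None of the genes lay above the baseline by this rule (0 of 7), while 52.7% of all named genes did. All 7 had a mean below it, as 47.3% of all named genes had. The median of the mean distances was -1.99 log2 units, against 0.26 over all named genes. CHAT, SLC18A3, SLC5A7, ACHE and PRIMA1 were below the baseline on each of the 4 arrays. That is 5 of 7, and 39.8% of all named genes were placed likewise. COLQ was above the baseline on 1 array and BCHE on 2. The choice of baseline moved these counts, and with olfactory receptor genes as controls 4 of the 7 lay above, beside 71.4% of all named genes.

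**Figure D1:**
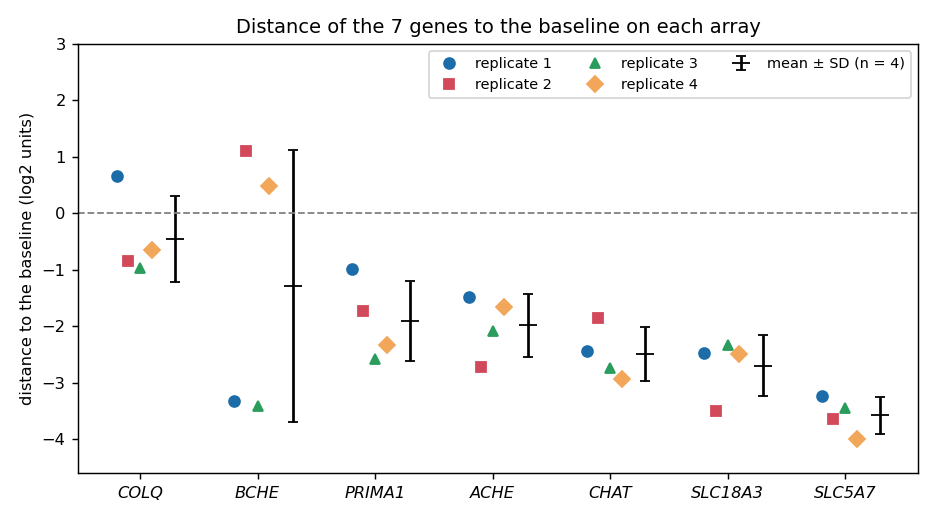
Distance to the baseline in log2 units (y axis) of the 7 genes (x axis, in order of mean distance) on each of the 4 HEK293 arrays, with the mean ± SD (n = 4) in black and the baseline as a dashed line. BCHE lies above the baseline on replicates 2 and 4 and more than 3 log2 units below it on replicates 1 and 3, and no array lies near its mean of -1.29.

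BCHE was the gene of the set whose message differed most between the cultures. Its level was 6.14, 11.04, 7.28 and 10.81 log2 units on replicates 1 to 4. The values fell into a low pair and a high pair with nothing between them. The distance was 1.10 on replicate 2 and 0.49 on replicate 4, and it was -3.33 on replicate 1 and -3.41 on replicate 3. In rank BCHE stood at the 56.3 percentile of named genes on replicate 2 and at the 4.0 percentile on replicate 1. The mean distance of -1.29 ± 2.42 log2 units (SD, n = 4) therefore describes none of the 4 cultures. Left out singly, the arrays moved this mean between -2.08, without replicate 2, and -0.58, without replicate 3. In RNA from whole cultures, a larger share of cells with BCHE message and more message per cell cannot be told apart.

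The 3 BCHE probes gave the same picture one by one. The first probe read 6.22, 11.03, 7.22 and 10.21 log2 units on replicates 1 to 4. The second read 6.25, 10.68, 6.60 and 10.79. The third read 5.93, 11.32, 7.77 and 11.25. On every probe both of replicates 2 and 4 exceeded both of replicates 1 and 3, and the gap between the lower of the former and the higher of the latter was 2.99, 4.08 and 3.47 log2 units. The means of the 3 probes lay within 0.49 log2 units of each other. For ACHE and SLC18A3 the probe means spread over 1.86 and 1.87 log2 units, while their levels ranged over 1.46 and 1.92 between arrays.

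**Figure D2:**
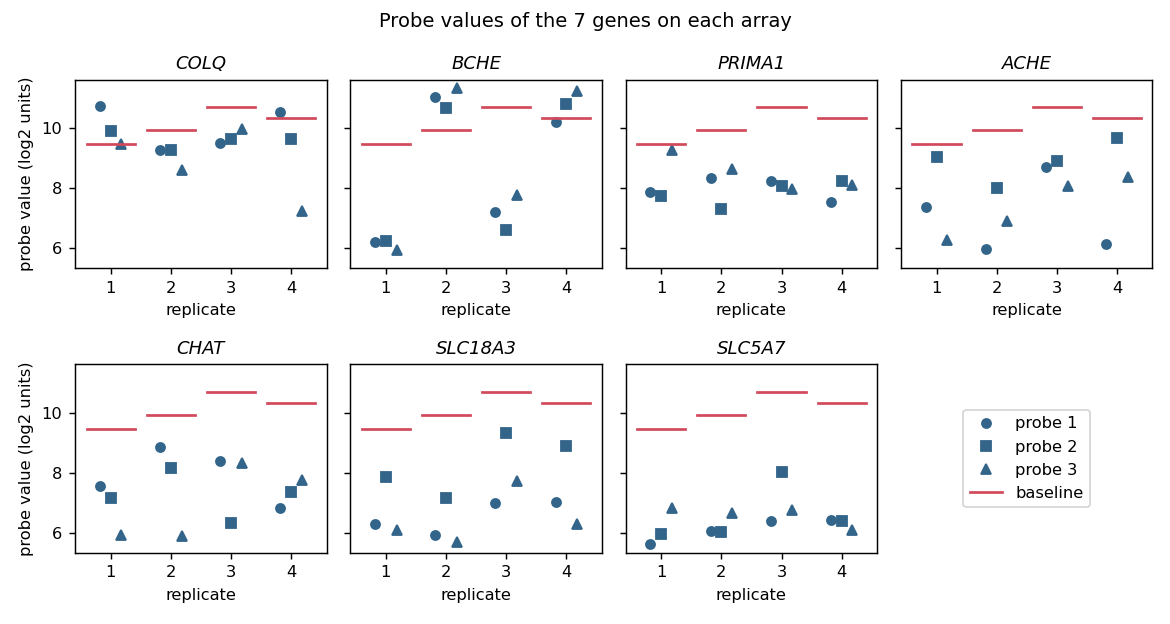
Values of the single probes in log2 units (y axis) on the 4 arrays (x axis) for each of the 7 genes, with the baseline of each array as a red line. The 3 BCHE probes move together from array to array, while for ACHE and SLC18A3 the second probe reads above the other probes on all 4 arrays.

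Within the pairs of arrays that share a distribution, the BCHE level was 4.89 log2 units higher on replicate 2 than on replicate 1 and 3.53 higher on replicate 4 than on replicate 3. Over all named genes the median absolute difference was 0.40 in the first pair and 0.42 in the second, and the central 95 percent of genes lay between -1.54 and 1.84 and between -1.44 and 1.40. BCHE ranked 5 among 17217 genes in each of these differences. Replicates 2 and 4, from different pairs, differed by 0.22 log2 units, and replicates 1 and 3 by 1.13. The SD of the BCHE level over the 4 arrays was 2.48, which ranked 10 among all named genes, where the median SD was 0.42.

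A measure chosen after these values were seen was the gap between the lower of replicates 2 and 4 and the higher of replicates 1 and 3. For BCHE it was 3.53 log2 units, and 1 gene, MAGEA11, had a wider one at 4.00. Among the 7 genes BCHE was the only one with both of replicates 2 and 4 above both of replicates 1 and 3, an arrangement that 18.5% of all named genes shared. A gap over 2 log2 units in this direction was found for 36 genes and in the opposite direction for 50. The widest in the opposite direction belonged to PSMD5 at 5.58, PTN at 5.16 and SOX11 at 5.07. COLQ was the only one of the 7 with both of replicates 1 and 3 above both of replicates 2 and 4, by 0.05 log2 units, an arrangement shared by 22.2% of all named genes.

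**Figure D3:**
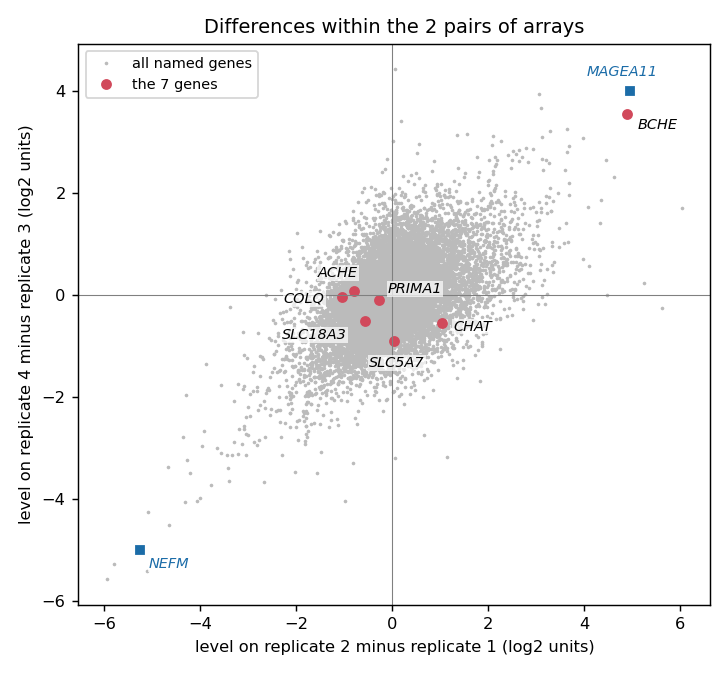
Difference in level between replicates 2 and 1 (x axis) and between replicates 4 and 3 (y axis), in log2 units, for all 17217 named genes (grey), the 7 genes (red), and MAGEA11 and NEFM (blue). BCHE, at 4.89 and 3.53, lies at the edge of all genes beside MAGEA11, and the other genes of the set lie within 1.05 log2 units of 0 on each axis.

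The genes whose pattern over the 4 arrays was most like that of BCHE were found from the deviations of each gene from its own mean. The nearest was MAGEA11, a cancer-testis antigen gene, whose deviations differed from those of BCHE by at most 0.32 log2 units. AIF1, a calcium-binding protein of macrophages, followed at 0.49, and KLHL41, a kelch protein of skeletal muscle, at 0.62. No gene was within 0.2 log2 units (0 genes), 2 were within 0.5 and 18 within 1. For COLQ, by contrast, 147 genes lay within 0.2, of which SUGT1 at 0.04, BAD at 0.06 and TRIM11 at 0.06 were the nearest. Over only 4 arrays of 1 group such likeness is a description, and nothing was tested.

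Since AIF1 is known from macrophages, a list of 12 myeloid marker genes was looked at, chosen after these values were seen. AIF1 read 6.87, 11.34, 8.33 and 10.96 log2 units on replicates 1 to 4, TYROBP 9.19, 12.83, 10.30 and 13.11, and CD52 7.55, 10.77, 7.82 and 10.47. These were the markers of the list, 3 of 12, with both of replicates 2 and 4 above both of replicates 1 and 3, beside 18.5% of all named genes. AIF1 had led to the list through its likeness to BCHE, so its own place among the 3 was set before the count. The common leukocyte antigen PTPRC was below the baseline on all 4 arrays, with levels from 6.22 to 7.73, and so were ITGAM, SPI1, LYZ, CD14, CD163 and FCER1G, 7 of 12 in all. CD68, a lysosomal protein of macrophages, was above the baseline on all 4 arrays, by 1.67 ± 0.71 log2 units (SD, n = 4), and CSF1R was above it on 1. CD14 and CSF1R had both of replicates 1 and 3 above both of replicates 2 and 4, by 0.71 and 0.40 log2 units. These were 2 of 12, beside 22.2% of all named genes. The mean level of the whole list was 7.92, 8.81, 8.62 and 9.16 log2 units on replicates 1 to 4. Among markers of neurons the order was often the reverse of that of BCHE, with 6 of 10 higher on both of replicates 1 and 3, beside 22.2% of all named genes. NEFM, the medium neurofilament chain, had the widest gap of the 6 and read 13.57, 8.32, 13.09 and 8.08. For NEFL the gap was 0.08 log2 units, and SNAP25 and STMN2 were below the baseline on all 4 arrays. The heavy chain NEFH, 1 of 10, went the same way as BCHE, at 11.61, 12.65, 11.38 and 12.36. Of 13 kidney markers 8 were higher on both of replicates 2 and 4, beside 18.5% of all named genes. Among them was the phosphate transporter SLC34A1 at 6.41, 9.70, 7.53 and 9.63, while the gap for AQP2 was 0.04. Of the 13 kidney markers 11 were below the baseline on all 4 arrays, SLC34A1 and AQP2 included. All 7 liver markers, albumin included, were below the baseline on all 4 arrays, and their mean level ran from 6.16 to 7.17. The part of these differences between cultures in the BCHE values was not tested.

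The promoter of BCHE is shown because its base composition was the lowest in G and C and differed from the other genes of the set. It lies at chr3:165837374-165837673 on the minus strand of GRCh38.p14, by RefSeq, and runs from 250 bases before to 50 bases after the annotated start of transcription. Capitals mark matches to the letters TATAAA, of the TATA box, and CCAAT, of the CCAAT box, and in the ACHE sequence GGGCGG, the GC box, all searched on both strands, so that TTTATA marks TATAAA on the other strand. One of the 3 ACHE promoters in the table, at chr7:100895839-100896138 on the minus strand, is set beside it.
BCHE: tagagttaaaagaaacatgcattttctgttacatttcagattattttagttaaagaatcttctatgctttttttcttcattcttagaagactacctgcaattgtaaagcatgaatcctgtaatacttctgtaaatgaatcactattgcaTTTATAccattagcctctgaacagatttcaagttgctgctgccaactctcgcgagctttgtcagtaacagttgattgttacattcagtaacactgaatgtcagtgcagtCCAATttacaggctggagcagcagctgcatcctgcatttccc
ACHE: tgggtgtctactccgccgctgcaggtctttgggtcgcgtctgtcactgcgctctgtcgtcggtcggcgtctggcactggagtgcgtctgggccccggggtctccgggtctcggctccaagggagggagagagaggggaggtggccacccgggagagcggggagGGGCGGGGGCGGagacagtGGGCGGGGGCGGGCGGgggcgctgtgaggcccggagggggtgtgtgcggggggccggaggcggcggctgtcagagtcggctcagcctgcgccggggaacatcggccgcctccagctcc
The BCHE window was 36.7% G and C with 2 CpG dinucleotides, and 6.11% of 35116 annotated promoters had a lower share. The ACHE window shown was 74.7% G and C with 31 CpG dinucleotides and 5 GC boxes, some of which overlap. TATAAA occurred in 11.5% of all promoters, CCAAT in 34.6% and GGGCGG in 45%. In the BCHE window TATAAA lay on the opposite strand and CCAAT lay after the start. Over the 11 promoters listed for the 7 genes the share of G and C was lowest for BCHE, followed by COLQ at 53.7% with 3 CpG dinucleotides. SLC18A3 had 72%, PRIMA1 74.3% and SLC5A7 66.3%, the 3 CHAT promoters had 60%, 62.3% and 54.3%, and the other ACHE promoters had 61.7% and 70.7%. Among named genes with a promoter in the table, 145 of 1323 whose promoters held under 45% G and C lay above the baseline (11.0%), against 3830 of 5705 with 65% or more (67.1%), in classes set after the values were seen. By the same mean distance BCHE was below the baseline, like most genes of its class, but on replicates 2 and 4 it was above it. From 45% to under 55% G and C the share of genes above was 37.8%, and from 55% to under 65% it was 60.1%. PRIMA1, SLC18A3 and SLC5A7 were below the baseline with promoters of 65% or more, as was ACHE with the promoter shown. CHAT, with promoters of 60%, 62.3% and 54.3%, was below the baseline too. These are descriptions of letters and counts, with no test.

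Acetylcholinesterase message was below the baseline of the study's methods on all 4 arrays. The ACHE level was 7.99, 7.21, 8.60 and 8.67 log2 units on replicates 1 to 4, and its distances were -1.475, -2.73, -2.09 and -1.65. The mean distance was -1.99 ± 0.56 log2 units (SD, n = 4). With olfactory receptor genes as controls the ACHE distances were instead 0.25, -0.65, 0.27 and 0.52 on replicates 1 to 4. The first ACHE probe read 7.37, 5.97, 8.71 and 6.14, the second 9.03, 8.02, 8.89 and 9.68, and the third 6.29, 6.92, 8.09 and 8.37. None of these 12 probe values reached the baseline, although the second probe came within 0.44 of it on replicate 1. ACHE did not share the pattern of BCHE, as its level on replicate 2 was the lowest of the 4 and that on replicate 1 lay 0.78 above it. The difference between replicates 4 and 3 was 0.07.

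The neurotransmitter's synthetic enzyme and its vesicular transporter were also below the baseline. CHAT stood at levels of 7.04, 8.08, 7.94 and 7.38 log2 units on replicates 1 to 4, with a mean distance of -2.49 ± 0.47 (SD, n = 4). Its highest value was on replicate 2 and its next highest on replicate 3, so the high and low arrays of BCHE were mixed. SLC18A3 stood at 6.99, 6.43, 8.35 and 7.83, with a mean distance of -2.70 ± 0.54 (SD, n = 4). Both of replicates 3 and 4 were above both of replicates 1 and 2 for this gene, which follows the pairs of arrays that share a distribution. In the RefSeq table the whole of SLC18A3 lies inside CHAT, on the same strand, so unspliced CHAT message and SLC18A3 message could not be told apart by the SLC18A3 probes. The mean difference between the levels of these genes was 0.21 ± 0.99 log2 units (SD, n = 4), within the spread between arrays.

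SLC5A7, the transporter that recovers choline at cholinergic nerve endings, had the lowest mean distance of the set. Its levels were 6.24, 6.29, 7.24 and 6.32 log2 units on replicates 1 to 4. The distance was -3.58 ± 0.33 (SD, n = 4) and ran from -4.0 to -3.23. The percentile among named genes was 12.2 on replicate 3 and from 0.42 to 7.8 on the others. On replicate 3 the second probe read 8.02 while it read 5.98 to 6.41 elsewhere, and the other probes did not stand out on that array.

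In mean distance the anchor proteins were nearer to the baseline than the transporters. On replicate 3, however, PRIMA1 at -2.58 lay further below it than SLC18A3 at -2.34. COLQ had levels of 10.13, 9.09, 9.72 and 9.67 log2 units on replicates 1 to 4, and distances of 0.66, -0.85, -0.97 and -0.66. It was above the baseline on replicate 1, where the baseline was lowest, and the mean distance of -0.45 ± 0.76 log2 units (SD, n = 4) was within the spread between arrays. Left out singly, the arrays moved this mean between -0.83, without replicate 1, and -0.28, without replicate 3. Its probes spread most on replicate 4, where they read 10.53, 9.65 and 7.24. Of the 12 COLQ probe values 4 lay above the baseline, 3 of them on replicate 1. PRIMA1 had levels of 8.47, 8.20, 8.11 and 8.0, the narrowest range of the set at 0.48 log2 units. Its distance was -1.91 ± 0.70 (SD, n = 4) and ran from -2.58 to -1.0. The distance varied more than the level, as the baseline itself moved from array to array.

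By mean distance the order was COLQ, BCHE, PRIMA1, ACHE, CHAT, SLC18A3 and SLC5A7. The difference between neighbours in this order, in which the baseline cancels, was within its SD over the 4 arrays for COLQ and BCHE (0.83 ± 2.84), BCHE and PRIMA1 (0.62 ± 2.62), PRIMA1 and ACHE (0.08 ± 0.79) and ACHE and CHAT (0.51 ± 0.95), as well as for CHAT and SLC18A3. Only SLC18A3 and SLC5A7 differed beyond it, by 0.88 ± 0.58 log2 units (SD, n = 4), with SLC18A3 higher on all 4 arrays. On replicates 2 and 4 alone BCHE came first, at a mean distance of 0.79, and on replicates 1 and 3 alone it stood at -3.37. The order is one of probe signals and not of transcript amounts.

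**Figure D4:**
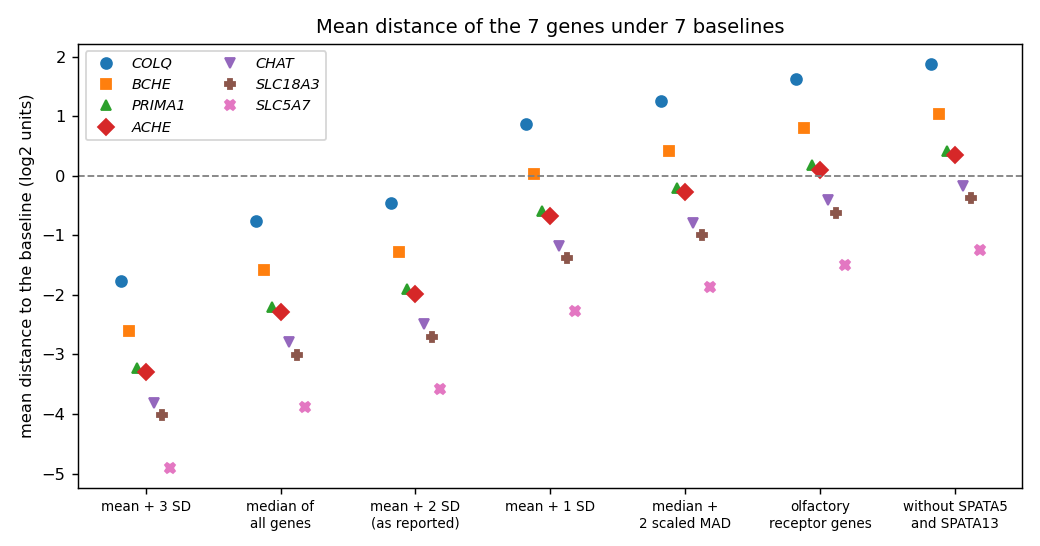
Mean distance in log2 units (y axis) of the 7 genes over the 4 arrays, set against 7 baselines (x axis) that differ in the control genes or in how they are summarised. COLQ and BCHE cross 0 once the baseline is lowered, PRIMA1 and ACHE cross it under the lowest 2 baselines, and CHAT, SLC18A3 and SLC5A7 stay below 0 under all 7.

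The baseline rests largely on SPATA5 (now AFG2A) and SPATA13, which lay above the other 8 control genes on every array. Without them the mean distances were 1.87 for COLQ, 1.04 for BCHE, 0.42 for PRIMA1 and 0.34 for ACHE, while CHAT stood at -0.17, SLC18A3 at -0.38 and SLC5A7 at -1.26, and 74% of all named genes lay above. The contrast within BCHE is one of levels, which no baseline enters. Under this lower baseline its distance was 3.36 and 2.90 on replicates 2 and 4, and still -1.30 and -0.81 on replicates 1 and 3. With a baseline of 3 SD it was -0.24 and -0.82 on replicates 2 and 4, the only baseline of the 7 under which BCHE was above it on no array.

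The neighbours of BCHE on its chromosome had no gap of that size. The nearest measured genes in RefSeq order were SLITRK3 on one side, at distances of -0.39, -0.65, -2.33 and -0.96 on replicates 1 to 4, and ZBBX on the other, at -3.17, -3.67, -2.80 and -3.59. Neither was above the baseline on any array, and the SLITRK3 gap between replicates 2 and 4 and replicates 1 and 3 was 0.21. COLQ, in contrast, lay between EAF1 at 3.41 ± 0.96 and HACL1 at 3.31 ± 0.69 log2 units (SD, n = 4 for each). ACHE lay between UFSP1 at -0.10 ± 0.49 and TRIM56 at 2.13 ± 0.82 (SD, n = 4 for each).

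Genes on either side of the acetylcholine cycle were then set against the baseline from lists of their own, 88 matched genes of 89 listed, each counted once. Here limma's moderated test of the distance against 0 was run over all named genes, one-sided in each direction, with Benjamini-Hochberg adjustment. It called 33 of the 88 above the baseline (45.9% of all named genes) and 40 below (41% of all named genes). The median distance of the lists was -0.20 log2 units, against 0.26 over all named genes. Most genes of the precursor supply were called above. For acetyl-CoA supply 6 of 7 genes were called above, led by ATP citrate lyase, ACLY, at 5.28 ± 0.86, and for choline uptake and use 9 of 14, among them CHPT1 at 3.28 ± 0.77 and the general choline transporter SLC44A2 at 2.57 ± 0.34 log2 units (SD, n = 4 for each). In the latter list PCYT1B at -3.50 ± 0.26 and SLC44A4 at -0.83 ± 1.19 (SD, n = 4 for each) were called below. SLC44A4 was above the baseline on replicates 2 and 4, at distances of 0.19 and 0.11, and its call rests on the standard error of 0.351 that limma gave all genes, which does not reflect its own SD.

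**Figure D5:**
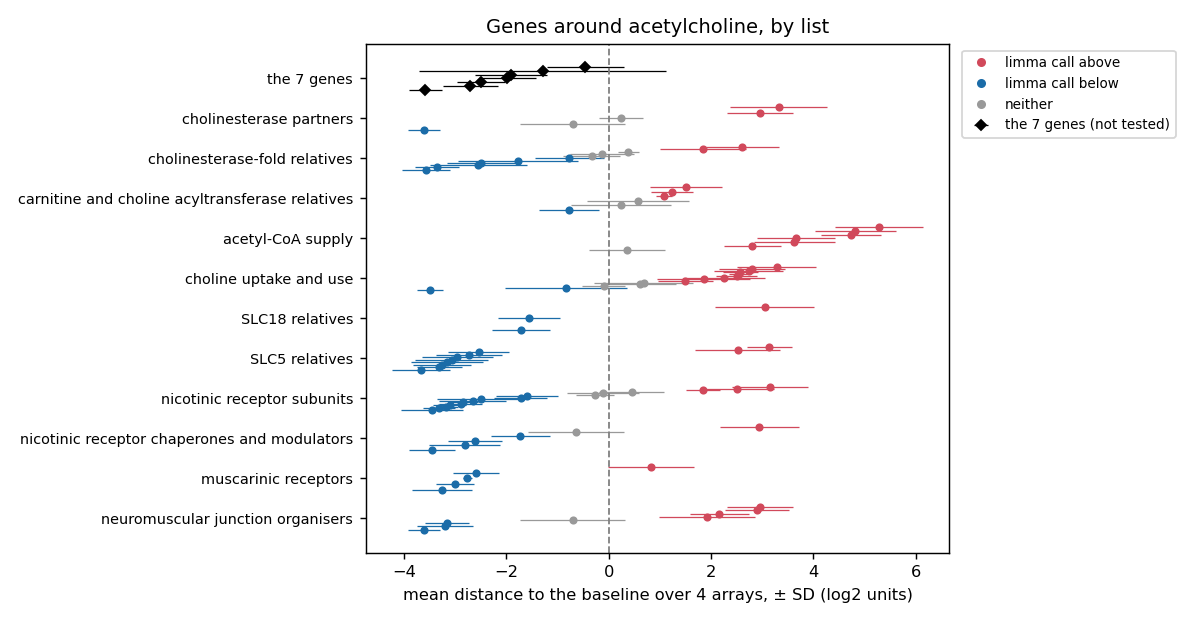
Mean distance to the baseline in log2 units with its SD over 4 arrays (x axis) for the genes of each list (y axis) and for the 7 genes (black, not tested), coloured by the limma call. The 7 genes lie between -3.58 and -0.45, while all acetyl-CoA supply genes have a mean above 0.

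Relatives of the 7 genes divided between the sides, where 45.9% of all named genes were called above and 41% below. Carnitine acyltransferases share a fold with choline acetyltransferase, and 3 of 6 were called above the baseline, CPT1B at 1.51 ± 0.70, CRAT at 1.24 ± 0.40 and CPT1A at 1.08 ± 0.15 log2 units (SD, n = 4 for each). Proteins with a cholinesterase-like fold gave 2 of 11 above, NLGN2 at 2.61 ± 0.72 and the carboxylesterase CES2 at 1.84 ± 0.84 (SD, n = 4 for each), and 6 of 11 below. CES1 was called below at -1.77 ± 1.17 (SD, n = 4), and its level, like that of BCHE, was higher on both of replicates 2 and 4, at 7.27, 9.65, 7.63 and 8.79 on replicates 1 to 4. In the SLC18 family SLC18B1 was called above at 3.05 ± 0.97 and the monoamine transporters SLC18A1 and SLC18A2 below. Of 10 matched SLC5 transporters SLC5A6 at 3.13 ± 0.44 and SLC5A3 at 2.52 ± 0.84 (SD, n = 4 for each) were called above and the other 8 below.

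Of 5 partners of the cholinesterases 2 were called above the baseline and 1 below, beside 45.9% and 41% of all named genes. CUTA, which associates with acetylcholinesterase, stood at 3.32 ± 0.95 and DAG1, the dystroglycan gene, at 2.95 ± 0.65 log2 units (SD, n = 4 for each). RAPH1, whose proline-rich peptides hold butyrylcholinesterase tetramers together, had a mean distance of 0.24 ± 0.43 (SD, n = 4, limma adjusted p = 0.50). MUSK, the muscle kinase that binds COLQ, was called below at -3.61 ± 0.31 (SD, n = 4). All 8 skeletal muscle markers were called below the baseline, beside 41% of all named genes. Of 8 organisers of the junction, a list that also holds DAG1 and MUSK, 4 were called above and 3 below. AGRN at 2.90 ± 0.63, LAMB2 at 2.16 ± 0.57 and LRP4 at 1.92 ± 0.93 (SD, n = 4 for each) were called above, and DOK7 at -3.16 ± 0.43 and RAPSN at -3.20 ± 0.54 (SD, n = 4 for each) below.

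Of the receptors for acetylcholine, 3 of 16 nicotinic subunits were called above the baseline and 10 below, beside 45.9% and 41% of all named genes. CHRNB1 stood at 3.16 ± 0.74, CHRNA5 at 2.51 ± 0.72 and CHRNA7 at 1.85 ± 0.34 log2 units (SD, n = 4 for each), and CHRNA7 shares sequence with a partly duplicated gene, so its value is uncertain. CHRNB4 had a mean distance of 0.45 ± 0.64 (SD, n = 4, limma adjusted p = 0.203). Among the 5 muscarinic receptors CHRM3 was called above, at 0.82 ± 0.84 log2 units (SD, n = 4). On replicate 3 CHRM3 was below the baseline, at -0.08, and its call rests on the shared standard error of 0.351. Its levels were 9.84, 11.18, 10.61 and 12.09 on replicates 1 to 4, which like those of BCHE were higher on both of replicates 2 and 4. In all, 21 of the 88 list genes had both of replicates 2 and 4 above both of replicates 1 and 3, and 10 had the reverse, beside 18.5% and 22.2% of all named genes. Of 6 chaperones and modulators of nicotinic receptors LYPD1 was called above, at 2.94 ± 0.77 log2 units (SD, n = 4), and 4 were called below, among them RIC3 and TMEM35A, which help the receptors assemble.

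HEK293 cells are of embryonic kidney origin, and 2 of 13 kidney markers lay above the baseline, LRP2 and WT1, beside 52.7% of all named genes, while NPHS1 and UMOD were below it on all 4 arrays. Of 10 markers of neurons 6 lay above, a share near that of all named genes, and of 9 matched markers of cholinergic neurons HAND2 and NGFR did. No marker of red cells, which carry acetylcholinesterase on their surface, lay above the baseline (0 of 5). All 13 widely used reference genes did.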

How the data were processed

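Total RNA of 4 HEK293 cultures was converted to double-stranded cDNA with an oligo(dT) primer. The cDNA was labelled with Cy3 from random primers, which keeps no strand. Each culture was run on its own single-colour NimbleGen array designed on HG18. What the authors deposited is a log2 value for each probe. The study's methods describe extraction with the maker's software and a log2 step, and the submitters' processing notes name RMA. Sorted values lay within 0.01 log2 units at 99.97% of ranks for replicates 1 and 2 and at 99.99% for replicates 3 and 4, against 1.23% to 1.25% between these pairs. Neither background nor saturation was examined, as raw intensities were not used, and the number of arrays limits the precision.

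Probes were matched by accession to RefSeq genes of GRCh38.p14, which named 19125 of 24000 targets. The array was designed on another build, so no coordinates are given except those of the RefSeq promoters. A target was log2 of the mean of its linear probe values, and a gene the mean of its targets. The baseline followed the study's methods. The limma 3.58.1 fit in R 4.3.3 gave all genes a standard error of 0.351. It was also run on simulated data, with the same SD for every gene and no shift of whole arrays. As these data differ in both respects, that run is no check of the calls given here. A shift of a baseline moves all genes of an array together, so the tests were not independent. Flipping signs over 4 arrays gives no exact one-sided p under 0.0625. Calls used an adjusted p threshold of 0.05. Python 3.11.15 was used for the rest. Genes named in the text were the 7 genes, control genes, genes of the lists, the 3 genes nearest in pattern to COLQ and to BCHE, and nearest neighbours on the chromosome. PSMD5, PTN, SOX11 and the myeloid markers were named after their values were seen. The 7 genes and all lists were chosen with earlier results of these data known. Alternatives covered the control genes, the form and height of the baseline, the summary of probes and targets, a joint quantile normalization, the arrays used, the limma variance model and a filter on low levels.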

Additional observations from a re-analysis of the deposited data

Results flagged for a closer look

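For 102 levels and distances of the 7 genes and the list genes, the gap between the extreme array and its nearest neighbour was divided by the range over the 4 arrays and set against Dixon's critical value at the 95 percent level, which chance passes in about 1 of 20 groups. An array stood apart in 6 of them. The distance of SLC18A3 was -3.51 on replicate 2 and from -2.49 to -2.34 on the others, a ratio of 0.872. The level of SLC5A7 was 7.24 on replicate 3 and from 6.24 to 6.32 on the others, a ratio of 0.916. The distance of ACSS2 was 3.64 on replicate 1 and from 2.46 to 2.59 on the others, a ratio of 0.887. AGRN stood at 3.84 on replicate 1 and between 2.56 and 2.65 elsewhere (ratio 0.924). CHRNA1 stood at -4.35 on replicate 3 and between -3.25 and -3.03 elsewhere (ratio 0.836). MUSK stood at -3.14 on replicate 4 and between -3.81 and -3.70 elsewhere (ratio 0.843). The baseline was lowest on replicate 1 and highest on replicate 3, and its part in these distances was not tested. BCHE, with a high pair and a low pair of arrays, did not meet this criterion.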

How the results depend on the processing

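Replicates 1 and 3 or 2 and 4 alone were added as alternatives after the data had been examined. No paired analysis was possible because the design holds 1 group. The targets of a gene were not compared with each other, since each of the 7 genes had 1 target.

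The number of the 7 genes above the baseline was 0 as reported. It was 4 without SPATA5 and SPATA13 and with olfactory receptor genes as controls, 2 with 1 SD and with the median plus 2 scaled MAD, and 1 on replicates 2 and 4 alone. Of all named genes 52.7% lay above as reported, and 74%, 71.4%, 64.3%, 67.7% and 52.4% under these settings in turn. The median of their mean distances was -1.99 log2 units, and it was 0.34 without SPATA5 and SPATA13, 0.10 with olfactory receptor genes, -0.67 with 1 SD, -3.30 with 3 SD, -0.28 with the median plus 2 scaled MAD, -2.41 on replicates 3 and 4 alone and -2.41 on replicates 1 and 3 alone. Single genes changed sign without SPATA5 and SPATA13 (COLQ 1.87, BCHE 1.04, PRIMA1 0.42, ACHE 0.34), with olfactory receptor genes (COLQ 1.63, BCHE 0.79, PRIMA1 0.17, ACHE 0.10), with 1 SD (COLQ 0.86, BCHE 0.029), with the median plus 2 scaled MAD (COLQ 1.25, BCHE 0.42) and on replicates 2 and 4 alone (BCHE 0.79). Of the 7 genes 3 kept their place in the order on replicates 1 and 3 alone and 5 on replicates 2 and 4 alone, and all 7 kept it under the other summaries of probes and targets.

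The limma calls above the baseline among all genes, 7904 as reported, were 4922 with 3 SD. Those below, 7058 as reported, were 2726 without SPATA5 and SPATA13, 3519 with olfactory receptor genes and 4179 with the median plus 2 scaled MAD. In the lists the calls above were 56, 52 and 51 under these settings against 33, and those below were 17 and 23 under the first and second against 40. With only genes whose mean level was above the median, 0 were called below, since the genes under the baseline had been left out. Left out singly, the arrays gave 0 of the 7 genes above the baseline, a median between -2.21 and -1.95, 8715 to 9343 genes above the baseline in all, and 41 to 43 of the list genes. The lower baselines themselves set these counts, while a joint quantile normalization of the 4 arrays changed none of them by more than 1.5 times.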

Other observations

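Among the marker lists, the kidney gene SLC34A1 had a wide gap in the same direction as BCHE, at 2.10 log2 units between the lower of replicates 2 and 4 and the higher of replicates 1 and 3. SLC34A1 was below the baseline on all 4 arrays. NGFR, a marker of cholinergic neurons of the forebrain, went the other way, at 11.41, 10.63, 11.81 and 10.73 log2 units on replicates 1 to 4. The choline transporter-like gene SLC44A4 read 8.09, 10.13, 8.44 and 10.43, with a gap of 1.68 toward replicates 2 and 4, the widest among the 88 list genes. These values were singled out after they had been seen and were not tested.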
